A study of Homo sapiens with 6 samples.

Results

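Read-through genes are annotated transcription units that span a pair of neighbouring genes on 1 strand, and the tables name them after both, as in FAM47E-STBD1. They were chosen here as the rows whose name joins 2 other gene names of the table and that had at least 1 estimated count summed over the samples, so they were selected on their summed counts. This gave 98 read-through genes among 58825 rows, where 120 rows had such a name and 22 of them had no count. Just inside that limit, HSPB2-C11orf52 had 4 counts over the 6 samples, and the rows just outside had 0. The measurements were RNA-seq libraries of PANC-1 cells, an established human pancreatic cancer cell line, grown for 24 h with 40 μM maslinic acid (MA), a triterpenoid of olives (MA PANC-1, n = 3), or with 0 μM (PANC-1, n = 3). The study's methods list DMSO as the alternative to MA in its cell treatments, and give 0 μM for these libraries. The study asked which transcripts differ after MA.

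The deposited counts were StringTie estimates and summed to between 56978375 (MA PANC-1 1) and 70275355 (PANC-1 1) per sample. The read-through genes held between 0.0739% (MA PANC-1 2) and 0.0934% (PANC-1 3) of these counts, and between 67 and 75 of the 98 had a count in any 1 sample. The cells carried the epithelial keratin KRT18 at 278 to 338 FPKM (abundance per transcript length and library size) and the mesenchymal filament gene VIM at 521 to 754 FPKM. EPCAM, a defining epithelial surface marker, was at or under 0.132 FPKM and KRT19 at or under 0.109 FPKM in every sample. Genes of acinar cells (PRSS1, CPA1, CELA3A), islets (INS, GCG), leukocytes (PTPRC) and endothelium (PECAM1) were at or near 0. The study's methods call the 3 samples of a group biological replicates, and the labels do not say whether they were separate cultures, so p-values measure the spread between these samples.

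RNA polymerase II normally stops after a gene's polyadenylation site, where the cleavage and polyadenylation complex cuts the RNA and the nuclease XRN2 degrades the part still being made. When the polymerase runs on into the next gene, the longer RNA can be spliced from an exon of the upstream gene to an exon of the downstream gene. The joined RNA then shares most of its exon bases with one partner or the other, and the splice junction between them can be the only stretch that belongs to neither.

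Most members had this layout in the annotation. Of the 98, 97 had partners on 1 chromosome and strand, and the exception was BORCS7-ASMT, whose partner name ASMT belongs to a gene on another chromosome. In 90 of the 97 the upstream gene ended before the downstream gene began, with a median gap of 6991.5 bases (139 to 573553). A read-through gene began within 100 bases of its upstream partner in 44 loci and ended within 100 bases of its downstream partner in 52, and both held in 27. A median of 3.57% of a member's exon bases lay outside both partners, and 26 members had none of their own. In 60 members at least 1 transcript was annotated as protein coding; in 30 others there was no coding transcript but one annotated for nonsense-mediated decay, the pathway that degrades RNAs with an early stop. ARMCX5-GPRASP2 is the name of 2 rows, and RAB4B, ARMCX5 and GPRASP2 are each a partner in more than 1 member, so the 98 members made 96 separate loci.

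The junctions below are shown because they are what sets a read-through RNA apart from its partners: each line has the last 15 bases of an exon of the upstream gene in lower case and the first 15 bases of the exon joined to it, at the downstream gene, in capitals, 5′ to 3′. They were read from the GENCODE 29 transcripts (GRCh38). A joining intron was annotated in 87 members, and sequences were taken for 155 such introns in 85 of them. Introns of a single chromosome and those with under 15 bases on a side were left out. Coordinates give the exon bases on both sides of the intron. FAM47E-STBD1 (chr4:76278224-76309144, plus strand) skips 30919 bases, and the sequences of FAM47E and of STBD1 around the same exon ends follow it. The plus strand also holds NME1-NME2 (chr17:51161272-51166827), the most abundant member, INO80B-WBP1 (chr2:74457538-74459643) and SENP3-EIF4A1 (chr17:7571479-7572284). The minus strand holds ISY1-RAB43 (chr3:129095169-129130088), BLOC1S5-TXNDC5 (chr6:7904723-8026367), whose intron of 121643 bases is the longest of these, and ARPIN-AP3S2 (chr15:89889140-89903216). In SENP3-EIF4A1 the joined exon begins upstream of the annotated exons of EIF4A1 and runs into them, so its capitals belong to neither partner alone. In the other 6 members both sides are also exon sequence of the partners.
FAM47E-STBD1: gagctgcaggaacagAGCATCTTCAAGAAA
FAM47E alone: gagctgcaggaacaggaggagttacttgca
STBD1 alone: tggtcaccaaaccagAGCATCTTCAAGAAA
NME1-NME2: catacaagttggcagGACCATGGCCAACCT
ISY1-RAB43: cagaaggctcctgggCTGCAGATCTGGGAC
BLOC1S5-TXNDC5: caggaacgaaaaaagGTGTGGACACTGCCA
INO80B-WBP1: agactgcggcgaccaCTTCGAGAGCTGTGC
ARPIN-AP3S2: gaggacgaggagtggCCAGAAGAAATTCAA
SENP3-EIF4A1: ctgcaaactcactgtCCAGGGGAATCCTCC

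In the FAM47E-STBD1 set the joined RNA has the left part of FAM47E and the right part of STBD1, and a read on either side of the junction is the same as one from a partner. The deposited tables give 1 value per gene and not the reads over a junction, so how many counts of a read-through gene came from its junction was not tested. In bulk RNA, fewer cells with a transcript and less of it per cell cannot be told apart.

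FAM47E-STBD1 (ENSG00000272414, chromosome 4, 76251721 to 76311120) was the example that led to the choice of the set, so its values are a description. Its estimated counts were 0, 23 and 72 with MA (samples 1, 2 and 3 in this order, here and for other genes) and 1407, 0 and 1300 without. It was high in 2 PANC-1 samples and at 0 in the third, so the groups overlapped. STBD1, which binds glycogen and tethers it to membranes, was at 518 and 425 counts where the read-through gene was high, and between 1542 and 1860 in the other 4 samples. FAM47E had at most 17. The sum of the 3 genes stayed between 1569 and 1941 counts in all 6 samples, and what varied was the share of it under the read-through name. That share was 72.5% (95% Wilson interval 70.5 to 74.4) and 74.9% (72.8 to 76.9) in PANC-1 1 and 3. It was 0 of 1720 counts in PANC-1 2, which allows up to 0.174% by counting error alone. With MA it was 0, 1.47 and 3.85%. In the FPKM values, which account for length, it made up 74.0 and 76.2% of the locus in the same 2 samples.

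**Figure D1:**
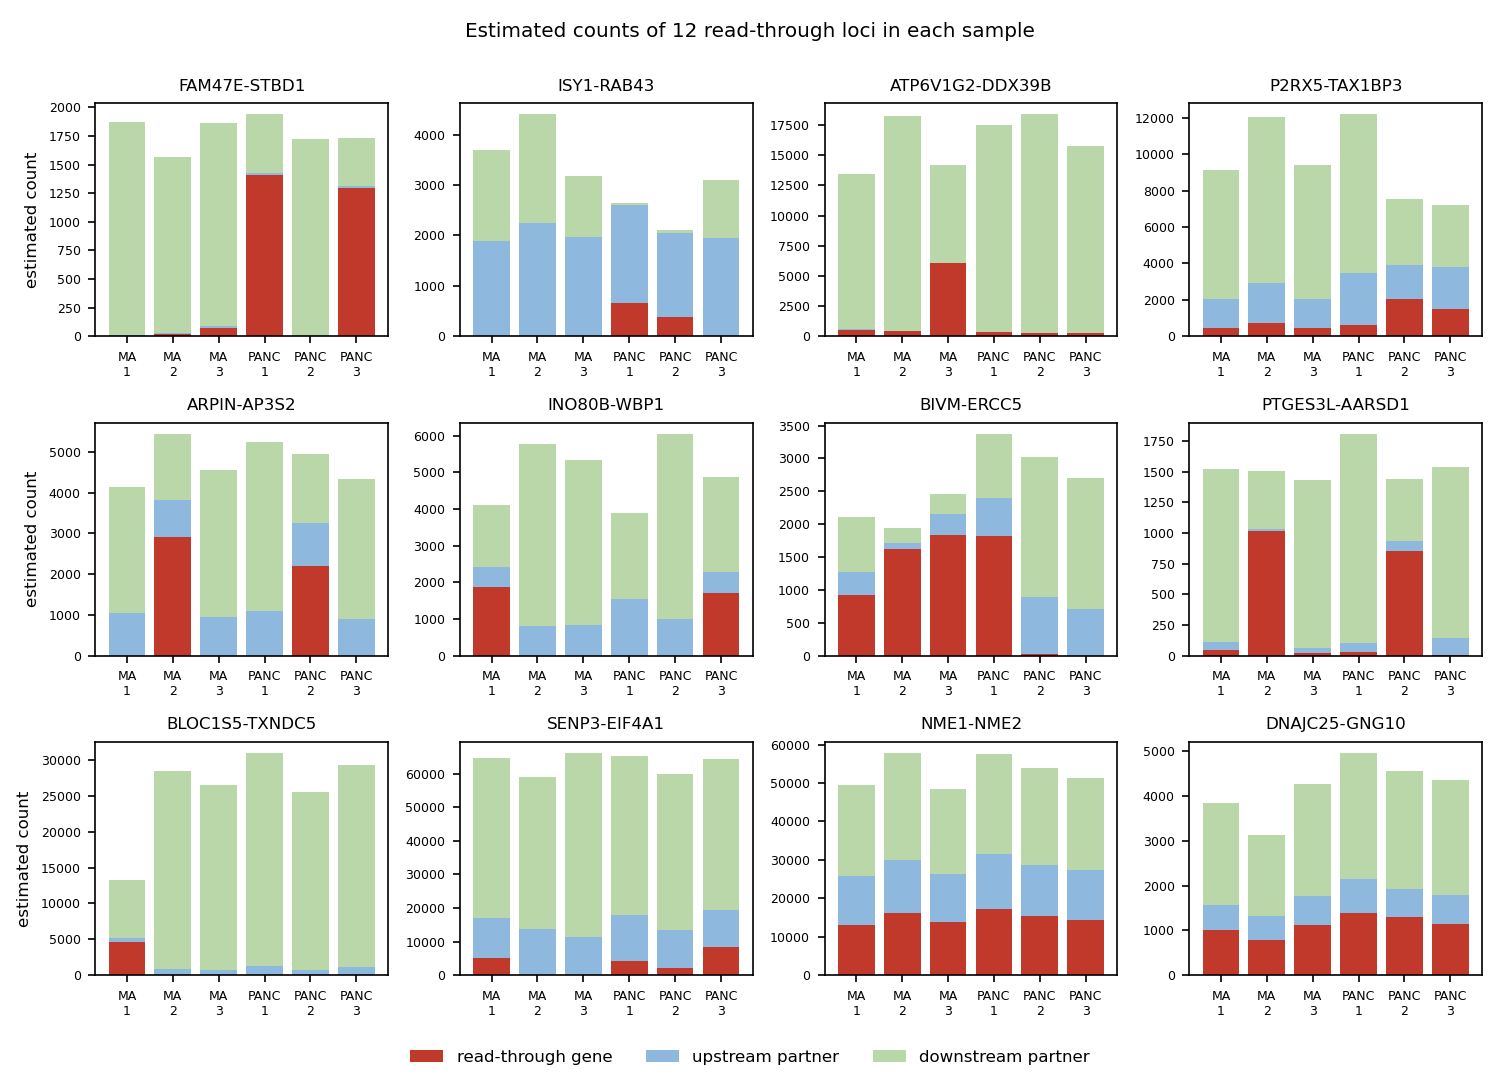
Estimated counts (vertical axis, from 0) of the read-through gene, the upstream partner and the downstream partner, stacked, in the 3 MA PANC-1 and 3 PANC-1 samples at 12 loci. The bar heights of FAM47E-STBD1 lie between 1569 and 1941 while its read-through part goes from 0 to 1407, and NME1-NME2 and DNAJC25-GNG10 have a steady part in every sample.

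The share of a locus held by its read-through gene varied widely between replicates. Over the 94 loci with a mean sum of at least 100 counts, the read-through gene held a median of 3.62% of the locus count, under 1% in 26 loci, under 10% in 62 and at least 50% in 5. Within the 3 samples of 1 group the share ranged over a median of 6.93 percentage points, taking the larger of both groups, over at least 25 points in 20 loci and over at least 50 points in 6. For the 30 read-through genes named by rule, the Wilson intervals of the share, which cover counting error only, were at most 11.5 points wide with a median of 1.28.

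**Figure D2:**
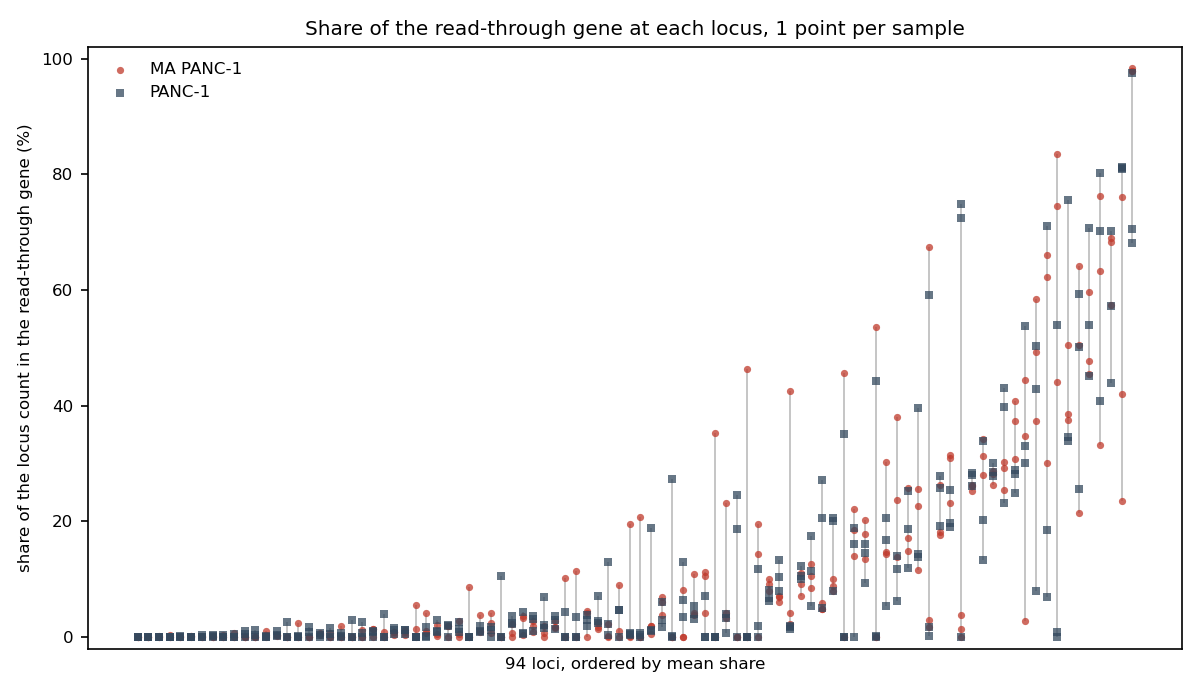
Share of the locus count held by the read-through gene (vertical axis, %), with 1 point per sample and a line from the lowest to the highest sample, at 94 loci ordered by mean share. Many of the long lines hold points of both groups along their length, and in 20 loci the samples of 1 group spread over at least 25 points.

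Several members were at 0 in some samples and above 1000 counts in others. Of the 63 members whose highest count was at least 100, 27 were at 0 in another sample (42.9%, against 0.895% of all 13849 genes that reached 100). Of the 22 that reached 1000, 8 were at 0 in another sample (36.4%), and the whole table held only 18 such genes among 9310 (0.193%). These 8 were RAB4B-EGLN2, RPL17-C18orf32, ARPIN-AP3S2, BLOC1S5-TXNDC5, BIVM-ERCC5, FAM47E-STBD1, INO80B-WBP1 and SENP3-EIF4A1. In 23 members the change between 0 and at least 100 counts took place between replicates of the same group. Counts were present in all 6 samples in 46 members and in 1 sample only in 10.

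ARPIN-AP3S2 joins the gene of an inhibitor of the Arp2/3 complex to that of an AP-3 adaptor subunit. It had 2, 2923 and 0 counts with MA and 0, 2189 and 5 without. Both high samples carry the number 2, 1 in each group, and AP3S2 was lowest in the same samples, at 1629 and 1696 counts against 3093 to 4122 elsewhere. PTGES3L-AARSD1, whose downstream partner is related to alanyl-tRNA editing enzymes, was also high in those 2 samples, with 46, 1014 and 25 counts with MA and 33, 853 and 4 without. AARSD1 had 472 and 513 counts there and 1368 to 1705 in the other 4 samples.

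INO80B-WBP1, which begins in a subunit gene of the INO80 chromatin remodeller, had 1870, 0 and 0 counts with MA and 0, 0 and 1711 without. The high samples here were MA PANC-1 1 and PANC-1 3, so no 1 library carried all the high values. SENP3-EIF4A1 runs from a SUMO protease gene into the gene of the translation initiation helicase eIF4A1. It had 5221, 0 and 0 counts with MA and 4175, 2074 and 8317 without, while EIF4A1 had 44921 to 54893 in all. RPL17-C18orf32, headed by a ribosomal protein gene, was at 0 in PANC-1 1 and at 1551 to 3353 in the other 5 samples.

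At some loci a partner was low in the sample where the read-through gene was high. In 11 of the 20 loci with a share range of at least 25 points, the downstream gene had its lowest count in the sample where the read-through gene was highest, and in 5 the upstream gene did. These loci were picked for a wide share, which by itself favours such a pairing, so the counts are a description. Outside these 20, RPL36A-HNRNPH2 had 889 counts in PANC-1 2 and 0 in all others, and HNRNPH2, an hnRNP that regulates splicing, had 673 counts in PANC-1 2 against 4594 to 7162 in the others. BLOC1S5-TXNDC5 had 4658 counts in MA PANC-1 1 and 0 elsewhere, and TXNDC5, a protein disulfide isomerase of the endoplasmic reticulum, had 8003 there against 24806 to 29754. At this locus the sum was low in that sample too, at 13228 counts against 25491 to 30994.

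The spread between replicates was measured as the standard deviation (SD) of log2 CPM, counts scaled to library size, within groups. Over the 69 members that passed a filter of a mean of 0.1 FPKM over the 6 samples, it had a median of 1.09, against 0.177 for their summed loci. The member's SD was above that of its locus in 64 of 69, with a median ratio of 5.77. Among the 43 of these with a count in all 6 samples the median ratio was 2.98. Against genes of like abundance the members also varied more. At mean counts of 100 to 1000 the median SD was 0.974 for 41 members and 0.283 for 4468 genes, and at 1000 to 10000 it was 0.750 for 11 members and 0.173 for 7416 genes.

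**Figure D3:**
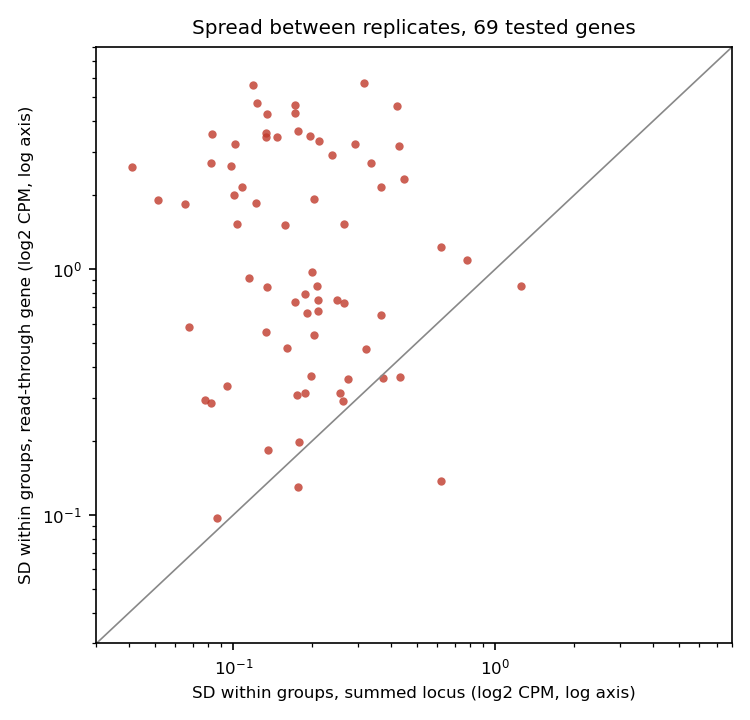
SD of log2 CPM within groups for each of 69 read-through genes (vertical, log axis) against that of its summed locus (horizontal, log axis), with the line of equality. Of the points, 64 lie above the line.

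The SD of log2 CPM was lower in read-through genes with more exon sequence to themselves, and the range of the share was not. Of the 52 tested members averaging at least 100 counts, the 17 with no exon base outside their partners had a median SD of 3.22, the 23 with some but under 20% a median of 0.847, and the 12 with at least 20% a median of 0.337. The median within-group range of the share was 19.6, 12.5 and 23.8 points in the same order, widest in the members with at least 20%. Their summed loci had similar median SDs of 0.177, 0.187 and 0.167. A count of 0 in some sample occurred in 10 of the 17, 8 of the 23 and 0 of the 12. Across these 52 genes, which share their libraries, Spearman's rho of the percentage and the SD was -0.50, given as a description. What sets the spread was not tested.

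**Figure D4:**
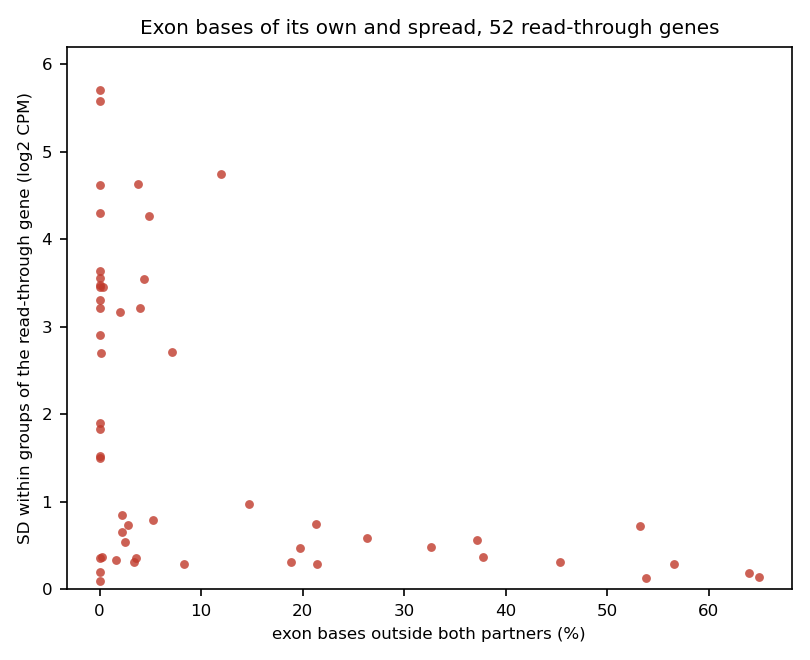
SD of log2 CPM within groups (vertical) against the percentage of exon bases outside both partners (horizontal) for 52 read-through genes averaging at least 100 counts. All points above an SD of 1 lie under 20%, and genes with no base of their own run from the lowest to the highest SD.

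Some members without exon bases of their own were steady all the same. NME1-NME2 (ENSG00000011052, chromosome 17, 51153590 to 51171744) joins the genes of a pair of nucleoside diphosphate kinases and was the most abundant member. It measured 154, 172 and 161 FPKM with MA and 167, 158 and 163 FPKM without, or 162 ± 8.72 and 163 ± 4.21 (SD, n = 3 each). The groups overlapped, with log2 fold change 0.04 ± 0.09 (SE, edgeR adjusted p = 0.898). It held 26.2 to 30.1% of the locus count in the 6 samples. DNAJC25-GNG10, which ends in a G protein gamma subunit gene, held 25.3 to 28.3%, with log2 fold change -0.22 ± 0.16 (SE, edgeR adjusted p = 0.613). ANKHD1-EIF4EBP3, which has exon bases of its own and ends in a gene of the eIF4E-binding family, had 3213, 3751 and 4357 counts with MA and 4335, 3001 and 4479 without, but its share ran from 44.0 to 70.2% of the locus within PANC-1.

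MA against 0 μM was the comparison the study was designed for. Its call, a fold of 2 and an unadjusted p under 0.05, was met by 10 of the 69 tested members with edgeR, 4 higher and 6 lower after MA (14.5%, against 1.92% of the 17774 genes tested, 0.675% higher and 1.25% lower). Of the 69, 8 were at 0 in every sample of 1 group and passed the filter only through the other group. Among the called these were CORO7-PAM16, ISY1-RAB43, COMMD3-BMI1, HSPE1-MOB4, CHURC1-FNTB and BLOC1S5-TXNDC5. The 14.5%, and the share past a fold of 2 below, rest partly on such members and are a description. None had an adjusted p under 0.05, where 7 of all genes did (0.0394%). The smallest among the members was 0.391, 13 of 69 had an unadjusted p under 0.05 (11.2% of all genes), and DESeq2 also gave 0, with 9 at an unadjusted p under 0.05. The call was met by 6 members with DESeq2 (1.79% of all genes). With limma it was met by 4 on log2(FPKM + 0.1) (2.06%) and by 0 on log2(FPKM + 1) (0.248%). A fold of 2 with no regard to p was reached by 26 members (37.7%, against 7.24% of genes). The median log2 fold change of the members was 0.04, and -0.00 over all genes. The CPM of the groups did not overlap in 5 of the 69 members, or 7.25%, against 20.6% of all genes. The 29 members left out by the filter had at most 165 counts in a sample, and without the filter 13 of 98 members met the call, against 2% of 28488 genes.

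Of the 6 lower members, 4 were at 0 in every MA PANC-1 sample, and each was at 0 or near it in at least 1 PANC-1 sample. ISY1-RAB43, which joins a splicing factor gene to a Rab GTPase gene, had 651, 393 and 0 counts without MA (edgeR adjusted p = 0.407). Against a floor of 3 counts over the group, its estimated counts were at least 319-fold lower after MA, a limit set mostly by PANC-1 1. The floor covers counting error only, and not how reads were divided between overlapping genes. It is therefore no bound on the RNA itself, and PANC-1 3 was at 0 as well. RAB43 had 1805, 2153 and 1217 counts with MA and 45, 51 and 1154 without, low where the read-through gene was high. HSPE1-MOB4, from the gene of the mitochondrial chaperonin HSP10 into MOB4, had 158, 69 and 0 counts without MA (edgeR adjusted p = 0.417), and COMMD3-BMI1, which ends in the Polycomb gene BMI1, had 0, 121 and 37 (edgeR adjusted p = 0.429). CORO7-PAM16, from a coronin gene into a gene of the mitochondrial protein import motor, had 4, 2 and 613, so that PANC-1 3 alone set its mean (edgeR adjusted p = 0.435).

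The other lower members were FAM47E-STBD1 and P2RX5-TAX1BP3, from an ATP-gated channel gene into a PDZ protein gene. P2RX5-TAX1BP3 had 437, 705 and 458 counts with MA and 623, 2041 and 1483 without, log2 fold change -1.25 ± 0.44 (SE, edgeR adjusted p = 0.429). PANC-1 1 lay within the MA PANC-1 values, so the groups overlapped. TAX1BP3 had 7098, 9137 and 7319 counts with MA and 8710, 3585 and 3453 without, lowest in the 2 samples where the read-through gene was highest.

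Of the 4 higher members, CHURC1-FNTB ends in the gene of the farnesyltransferase beta subunit. It had 63, 0 and 256 counts with MA and 0 in all samples without (edgeR adjusted p = 0.417). Against the same floor, which covers counting error only, its estimated counts were at least 116-fold higher, a limit set mostly by MA PANC-1 3. BLOC1S5-TXNDC5 rested on MA PANC-1 1 alone (edgeR adjusted p = 0.441). ATP6V1G2-DDX39B, which runs into the gene of an RNA helicase of splicing and mRNA export, had 561, 409 and 6061 counts with MA and 332, 249 and 283 without. These groups did not overlap, and the log2 fold change was 3.18 ± 1.02 (SE, edgeR adjusted p = 0.414), with most of the difference in MA PANC-1 3, where DDX39B was at 8163 counts against 12892 or more elsewhere. ZNF559-ZNF177, a pair of zinc finger genes, had 103, 40 and 96 counts with MA and 45, 51 and 21 without, log2 fold change 1.22 ± 0.49 (SE, edgeR adjusted p = 0.439) with overlapping groups. Leaving out each sample in turn ended the call of 7 of the 10 in at least 2 cases, and ISY1-RAB43, HSPE1-MOB4 and CHURC1-FNTB were called in all 6.

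When the read-through gene and its partners were summed, 0 of 95 tested loci met the call with edgeR or DESeq2 (1.86% of the rows of that table did), and 0 had an adjusted p under 0.05 (0.0397% of rows). An unadjusted p under 0.05 was reached by 8 of the 95 loci with either tool, against 11.2% of all genes with edgeR. No locus reached a fold of 2, against 7.24% of genes. These genes were not matched to the loci for abundance, and 65 summed loci averaged 1000 to 10000 counts. With a filter at a mean of 1 FPKM, 0.811% of genes met the call, so 0 of 95 loci is a description. The summed locus of 9 of the 10 called members had a log2 fold change under 0.5 in size. It was 0.14 for FAM47E-STBD1, -0.01 for ATP6V1G2-DDX39B and 0.09 for CHURC1-FNTB. The exception was ISY1-RAB43, whose locus had 3703, 4405 and 3181 counts with MA and 2651, 2099 and 3094 without, log2 fold change 0.67 ± 0.20 (SE, edgeR adjusted p = 0.380), opposite in sign to the read-through gene itself. The COMMD3-BMI1 locus had log2 fold change -0.36 ± 0.10 (SE, edgeR adjusted p = 0.376), with BMI1 at 2021, 4096 and 2607 counts with MA and 6630, 5291 and 5658 without.

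**Figure D5:**
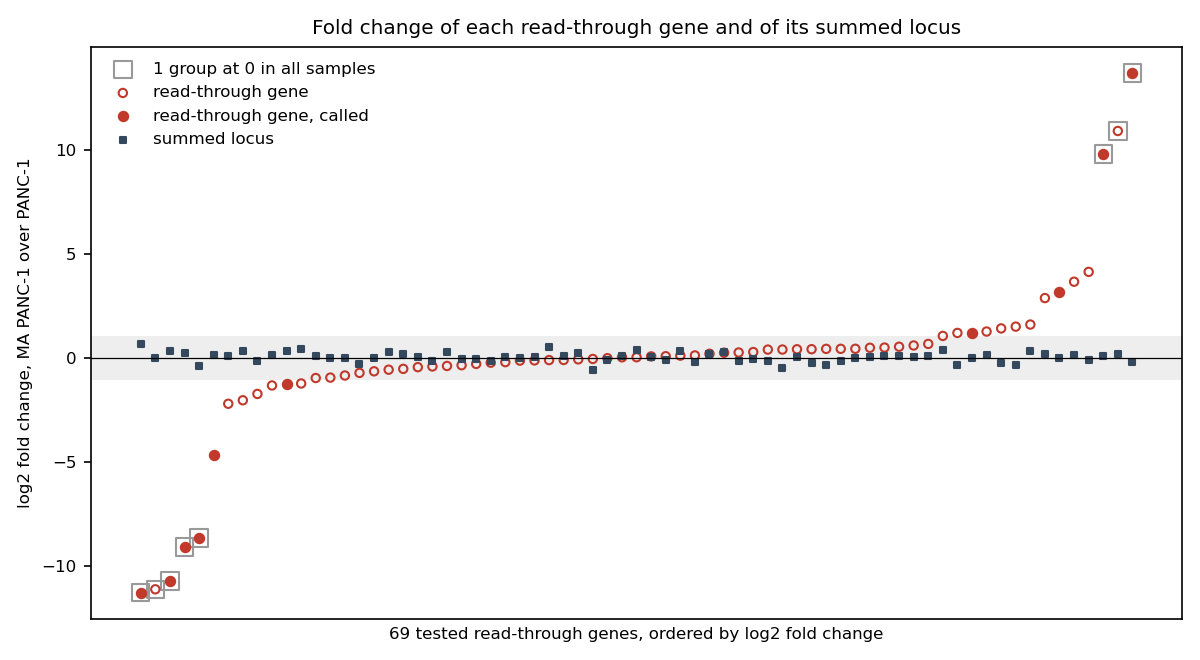
Log2 fold change of MA PANC-1 over PANC-1 (vertical) for 69 tested read-through genes in order of size, filled where called, with the summed locus of each as a square. Grey frames mark the 8 genes at 0 in all samples of 1 group, whose fitted size depends on the small count edgeR adds, and all summed loci lie within the grey band of a fold of 2.

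Partner genes were compared in the same fit. Of 167 tested partner genes, 7 met the call (4.19%, against 1.92% of all genes) and 0 had an adjusted p under 0.05. At the BIVM-ERCC5 locus the read-through gene had 931, 1625 and 1834 counts with MA and 1821, 27 and 0 without. ERCC5, the XPG endonuclease of nucleotide excision repair, had 842, 231 and 300 counts with MA and 983, 2133 and 1990 without, log2 fold change -1.74 ± 0.57 (SE, edgeR adjusted p = 0.414), and BIVM one of -1.36. The sum of the locus changed by -0.32 ± 0.12 (SE). Among the others, TEN1, a subunit of the telomere-capping CST complex, had a log2 fold change of 2.29 against 0.29 for its locus, and SCHIP1 one of -3.59 against -0.05. TEN1 had 124, 1061 and 595 counts with MA and 196, 146 and 67 without, so the groups overlapped. SCHIP1 had 26, 34 and 41 counts with MA and 755, 43 and 567 without, so PANC-1 2 lay near the MA values. With 1 sample left out, TEN1 ran from 1.59 to 2.77 and SCHIP1 from -4.13 to -3.13. The remaining called partners, named because the count is small, were ADORA2A (an adenosine receptor, -3.76), SAPCD1 (-1.83) and CDRT4 (3.71), with loci at -0.25, -0.59 and 0.27. ADORA2A had 1, 11 and 65 counts with MA and 579, 57 and 527 without, so its groups overlapped. The counts of SAPCD1 and of CDRT4 did not overlap between the groups. With 1 sample left out, the log2 fold change ran from -5.84 to -3.20 for ADORA2A, -2.26 to -1.34 for SAPCD1 and 1.89 to 4.52 for CDRT4. For ERCC5 it ran from -2.57 to -1.41 and for BIVM from -1.65 to -0.95.

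In 6 of the 94 loci the share of the read-through gene did not overlap between the groups (6.38%, 3 higher and 3 lower after MA), where 20.6% of all tested genes had CPM values that did not overlap. In 0 of the 94 did the difference of the mean shares exceed the range within a group. TEN1-CDK3, from TEN1 into a cyclin-dependent kinase gene, held 76.1, 23.6 and 42.1% of its locus with MA and 80.9, 81.1 and 81.2% without, a close set in PANC-1 beside a wide one in MA PANC-1. IQCJ-SCHIP1, which spans the 573553 bases between its partners and has 53.8% of its exon bases to itself, held 98.4, 97.9 and 97.9% with MA and 68.2, 97.5 and 70.6% without, and IQCJ itself was listed at 0 in all samples. The exact two-sided permutation test over samples gave p = 0.1 for both, the smallest p that 3 against 3 samples allow. Any groups without overlap give this p, so it adds nothing to the lack of overlap. For IQCJ-SCHIP1 the groups were barely apart. The Wilson intervals of MA PANC-1 2 (97.0 to 98.5%) and PANC-1 2 (96.6 to 98.1%) overlapped. The read-through genes themselves had log2 fold changes of -0.56 ± 0.32 (SE, edgeR adjusted p = 0.521) and 0.29 ± 0.13 (SE, edgeR adjusted p = 0.452).

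The genes of transcription termination gave no call. Of a list of 59 factors (cleavage and polyadenylation, Integrator, XRN2 and elongation factors that act at gene ends), 56 were in the table and tested, and 0 met the call with edgeR or DESeq2. With edgeR 0 had an adjusted p under 0.05 and 8 an unadjusted one (14.3%, against 11.2% of all genes). The count of 8 ran from 6 to 16 with 1 sample left out, and was 13 with the replicate number as a block. With DESeq2 SETD2 had an adjusted p under 0.05, as had 263 of all 17774 genes, and 9 of the list had an unadjusted one. The median log2 fold change of the list was 0.02. The genes below were named after their values were seen, because their number is small. SETD2, the histone H3 lysine 36 trimethylase, was at 3.79, 3.22 and 4.08 FPKM with MA and 5.05, 5.63 and 5.89 FPKM without, without overlap (log2 fold change -0.54 ± 0.11, SE, edgeR adjusted p = 0.345). INTS6 had a log2 fold change of -0.39, CPSF2 -0.33 and SCAF8 -0.31, while CPSF4 had 0.42, SSU72, a phosphatase of the polymerase tail, 0.38 and INTS7 0.34. XRN2 was at 43.7 ± 6.07 FPKM in MA PANC-1 and 47.9 ± 0.989 FPKM in PANC-1 (SD, n = 3 each), with a log2 fold change of -0.10.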

How the data were processed

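Libraries of 3 MA PANC-1 and 3 PANC-1 samples were compared. The authors' processing notes name cutadapt 1.9, HISAT2 2.0.4 and StringTie 1.3.4d; the genome build and annotation release are not given in the sources used here, but 58552 of the genes matched GENCODE 29 (GRCh38) by identifier and 47556 had the same coordinates. The deposited table holds expected counts, which StringTie estimates by dividing reads among overlapping transcripts, and FPKM values that the authors scaled to length and depth. Reads in exons that a read-through gene shares with a partner can be given to either, and counting by strand is not stated, so each value of such a gene is uncertain.

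Counts were whole and used as deposited. The main test was edgeR 4.0.16 (R 4.3.3), quasi-likelihood, TMM scaling, treatment only, Benjamini-Hochberg over 17774 genes with a mean of at least 0.1 FPKM; a call was a fold of 2 with an unadjusted p under 0.05. Summed loci replaced their genes in the same fit. SDs used log2 CPM with a prior count of 2. Scripts were tested on simulated data. Alternatives were DESeq2 1.42.0, limma 3.58.1 on log2(FPKM + 0.1) and log2(FPKM + 1), other scaling and filters, halved counts, a replicate block and leaving out each sample. Junctions were read from GENCODE 29 transcripts, with 15 bases on each side. Wilson intervals and limits at 0 (3 counts) cover counting error only.

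Members and lists were chosen with earlier results of these data known. Named were FAM47E-STBD1, members meeting the call, the 8 with the largest within-group range of share, the 8 with the highest mean share (both among loci of at least 500 counts), the 8 with the highest FPKM, up to 6 at 0 in 1 group, their partners and termination genes that met the call; other names are said to be chosen after their values were seen, as are the spread and zero-count measures. Some items of these lists are not reported here.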

Additional observations from a re-analysis of the deposited data

How the results depend on the processing

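The 10 called members became 4 of 39 with a filter at a mean of 1 FPKM (0.811% of all genes) and 6 with DESeq2 (1.79%). They became 4 with limma on log2(FPKM + 0.1) (2.06%) and 0 with limma on log2(FPKM + 1) (0.248%). Leaving out 1 sample gave 8 to 12, where 1.83 to 3% of all genes were called. Fewer genes tested is part of the first of these, and the cause of the others was not tested. No member had an adjusted p under 0.05 in any setting run. Summed loci gave 0 calls in all settings except 1 each without MA PANC-1 1 (TBC1D3P1-DHX40P1) and without MA PANC-1 3 (CRYZL2P-SEC16B), a range of 0 to 1. Loci whose shares did not overlap rose from 6 to between 14 and 18 with 1 sample fewer, where separation is easier, and the median range of the share was 4.46 to 5.39 points. The SD ratio of 5.77 over 69 members was 4.62 to 5.93 with 1 sample left out, and 2.98 over the 43 members with a count in all 6 samples, both added after seeing the data. Termination genes with an unadjusted p under 0.05 numbered 16 without MA PANC-1 3, and 6 to 16 over the samples left out.

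With the replicate number as a block, 11 members were called in place of 10 (1.84% of all genes) and 13 termination genes in place of 8 had an unadjusted p under 0.05. The numbers did not pair the samples: same-numbered deviations correlated at 0.029, 0.050 and 0.072, although each sample correlated best with its own number, a hint from the data and not the design.

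Changes of sign occurred in values near 0. NME1-NME2 was at -0.00278 and -0.00276 with limma (pseudocounts 0.1 and 1) and at -0.0455 to 0.0874 with 1 sample left out. For summed loci, limma gave 0.245 and 0.240 for ATP6V1G2-DDX39B and 0.0422 and 0.0372 for IQCJ-SCHIP1. With 1 sample left out the ranges were -0.141 to 0.0557 for ATP6V1G2-DDX39B, -0.442 to 0.0174 for SPECC1L-ADORA2A, -0.361 to 0.0804 for BLOC1S5-TXNDC5, -0.208 to 0.0769 for ZNF559-ZNF177 and -0.157 to 0.0196 for IQCJ-SCHIP1. The Wilson intervals of the named shares were up to 11.5 points wide, so differences of a few points can lie within counting error. By counting error alone a member with 0 counts may hold up to 3, and the division of reads between overlapping genes is not covered by this.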

Other observations

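RAB4B-EGLN2, which ends in the gene of a HIF prolyl hydroxylase, had 0, 1001 and 8 counts with MA and 28, 34 and 24 without, with 1 MA PANC-1 sample alone high. TRIM6-TRIM34, from a pair of tripartite motif genes, had 696 counts in MA PANC-1 3 and 0 in the other 5 samples, while TRIM34 had 29 counts in that sample and 216 to 469 elsewhere. TNFSF12-TNFSF13, which joins the TWEAK and APRIL ligand genes, held 36.4 ± 5.12% of its locus count with MA and 27.4 ± 2.17% without (SD, n = 3 each), and the groups did not overlap. PPT2-EGFL8 held 6.14, 6.97 and 7.06% with MA and 13.4, 8.03 and 10.4% without, also without overlap. The exact two-sided permutation test gave p = 0.1 for each share, the smallest it can give here and the value that any groups without overlap give. These members were chosen after their values were seen.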
